A study of Rattus norvegicus and Mus musculus with 22 samples.

Results

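The genes described here are 41 genes of the cellular response to low oxygen and of glycolysis, chosen by symbol from a list of hypoxia-inducible factor (HIF) pathway genes, HIF target genes and glycolytic enzymes. They comprise 8 HIF subunits and regulators, 9 other hypoxia targets, 4 glucose and lactate transporters, 11 genes of the upper steps of glycolysis, 6 of the lower steps and 3 that set the fate of pyruvate. Of these, 40 are among the 20229 gene symbols shared by the 3 rat count tables once 1 older symbol was matched, and Gapdh is not. The day 56 lung table lists all 41 symbols. The day 7 lung table and the table of CD4 isolates each list 40 of them, with Car9 under its older symbol Ca9 and no row named Gapdh.

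The samples were 16 RNA-seq libraries from rats given Sugen-Hypoxia, a model of pulmonary hypertension in which a VEGF receptor inhibitor is combined with low oxygen. Whole lung was sampled from wild-type (WT) rats and from rats lacking interleukin-6 (IL6-/-, here IL6KO) on day 7 and on day 56, with 3 libraries in each of these 4 groups. Cells positive for CD4, isolated by MACS (magnetic cell sorting) from day 7 lung, gave 2 libraries per genotype. All 6 groups carry the treatment, so these libraries hold no untreated or normoxic reference, and the labels do not say for how long the rats breathed low oxygen or whether day 56 lies within that time. They also give no strain, sex, age or pooling of animals, and nothing says that replicates came from separate animals. The p-values therefore measure only the spread between these libraries, which may be technical.

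HIF is a transcription factor made of an oxygen-labile alpha subunit (Hif1a or Epas1, also called HIF-2alpha) and the stable partner Arnt. In normal oxygen the prolyl hydroxylases Egln1, Egln2 and Egln3 mark the alpha subunit for capture by Vhl and destruction, so much of the control acts on the protein and is not visible in RNA counts. When oxygen falls, HIF binds short DNA cores and raises the transcription of glucose transporters, most glycolytic enzymes, lactate dehydrogenase A and pyruvate dehydrogenase kinase, which together direct glucose towards lactate. In the lung, Epas1 is abundant in endothelium, and both HIF alpha subunits are studied for their part in pulmonary hypertension. Activated T cells also turn to glycolysis, in part through Hif1a.

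The promoters of 4 enzymes that fell from day 7 to day 56 in both genotypes, and of Epas1, which rose, are shown because HIF acts through the cores ACGTG and GCGTG. Each is the RefSeq window from 250 bases before to 50 bases after the annotated start in rat build GRCr8, written 5′ to 3′ on the gene's strand. Capitals mark either core on either strand, so a core on the opposite strand reads CACGT or CACGC.
Ldha, chr1:106507842-106508141, plus strand: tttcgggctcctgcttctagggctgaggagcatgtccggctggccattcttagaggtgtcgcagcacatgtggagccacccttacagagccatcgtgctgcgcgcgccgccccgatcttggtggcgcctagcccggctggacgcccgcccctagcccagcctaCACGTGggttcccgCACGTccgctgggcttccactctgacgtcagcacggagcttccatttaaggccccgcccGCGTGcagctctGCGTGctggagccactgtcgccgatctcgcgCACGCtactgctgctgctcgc
Eno1, the second of its annotated starts, chr5:166003111-166003410, plus strand: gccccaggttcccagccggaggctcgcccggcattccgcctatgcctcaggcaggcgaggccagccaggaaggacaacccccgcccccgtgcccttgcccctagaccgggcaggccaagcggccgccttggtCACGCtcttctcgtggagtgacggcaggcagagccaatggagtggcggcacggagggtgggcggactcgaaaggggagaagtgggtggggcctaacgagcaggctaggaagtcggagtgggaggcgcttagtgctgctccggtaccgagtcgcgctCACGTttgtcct
Pfkl, chr20:10663715-10664014, plus strand: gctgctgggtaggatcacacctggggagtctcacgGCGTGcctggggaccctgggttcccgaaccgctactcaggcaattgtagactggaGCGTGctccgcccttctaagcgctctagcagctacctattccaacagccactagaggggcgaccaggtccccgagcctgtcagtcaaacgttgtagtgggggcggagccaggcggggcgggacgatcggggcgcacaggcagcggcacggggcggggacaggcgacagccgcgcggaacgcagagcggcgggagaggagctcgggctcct
Tpi1, chr4:159305039-159305338, minus strand: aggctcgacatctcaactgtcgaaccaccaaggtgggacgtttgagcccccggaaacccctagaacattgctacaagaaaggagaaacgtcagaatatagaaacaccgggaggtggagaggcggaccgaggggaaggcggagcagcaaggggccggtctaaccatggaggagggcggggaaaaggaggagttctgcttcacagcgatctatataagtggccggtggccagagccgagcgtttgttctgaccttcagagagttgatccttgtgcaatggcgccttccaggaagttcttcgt
Epas1, chr6:13624680-13624979, minus strand: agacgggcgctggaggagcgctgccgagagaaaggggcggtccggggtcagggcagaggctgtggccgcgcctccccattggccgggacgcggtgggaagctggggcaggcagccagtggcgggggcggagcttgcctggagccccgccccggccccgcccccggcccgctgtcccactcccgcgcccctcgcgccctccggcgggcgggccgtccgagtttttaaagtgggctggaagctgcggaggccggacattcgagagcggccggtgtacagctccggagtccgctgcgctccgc
The Ldha window held 3 ACGTG and 3 GCGTG matches, of which 2 ACGTG matches are the same CACGTG palindrome read on both strands. The Eno1 window shown held 1 of each core, while the window of its first annotated start, not shown, held 1 GCGTG match and no ACGTG. Pfkl held 2 GCGTG matches, and the Tpi1 and Epas1 windows held none of these letters.

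Promoter windows were found for 37 of the 41 genes (not for Bnip3l, Ndrg1, Slc2a3 or Pgk1). ACGTG was present in 22 of these 37 (59.5%), against 25.5% of the 10504 genes tested between the days that had a window and 19.3% of all 33469 windows. Either core was present in 26 (70.3%), against 61.1% of the tested genes and 41.6% of all windows. The share was similar among genes that fell and genes that were not called. Either core was present in 5 of the 7 genes lower on day 56 in both genotypes (71.4%) and in 15 of the 22 with a window that were called in neither genotype (68.2%). A match is a description of the letters and not a measured binding site.

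The tables held 14415060 to 23590070 counts per lung library and 11477533 to 12930732 per CD4 isolate. All levels below are CPM, counts scaled to library size, over the 20229 shared symbols after trimmed-mean (TMM) scaling, on 1 scale for all 16 libraries. Levels are compared between libraries for 1 gene and not between genes, since transcript lengths were not used. Il6, the targeted gene, was too low in lung to check the labels. Each lung library had at most 11 Il6 counts, WT (5 to 11) and IL6KO (0 to 8) alike. The CD4 isolates had 48 and 20 counts for WT against 8 and 17 for IL6KO. The part of Il6 removed is not given in the sources used here, so reads can remain outside it. In the CD4 isolates Cd4 was at 784 and 826 CPM in WT and 941 and 877 CPM in IL6KO, against 19.2 to 32.6 CPM in day 7 lung, and Cd3e was at 532 to 812 CPM. Lyz2, a macrophage gene, was at 7743 to 11470 CPM in the same isolates, and the surfactant gene Sftpc at 1374 to 2063 CPM in WT and 422 to 433 CPM in IL6KO, so they also held RNA of other lung cells. Both were higher in day 7 lung, Lyz2 at 15940 to 21280 CPM and Sftpc at 11100 to 13930 CPM, while neutrophil markers were lower there.

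Some glycolytic enzymes fell in lung from day 7 to day 56, 8 of 19 tested in WT and 7 of 19 in IL6KO, while Epas1 rose in both genotypes. Among the 40 of the 41 genes that could be tested between the days (Gapdh could not), edgeR's quasi-likelihood test called 9 lower and 3 higher in WT, and 10 lower and 2 higher in IL6KO, at an adjusted p under 0.05. That is 30.0% of the genes in each genotype, against 14.8% of all 13866 genes tested in WT (8.05% lower, 6.72% higher) and 8.32% in IL6KO (4.92% lower, 3.4% higher). The median log2 fold change of 39 genes, without Slc2a3, which was listed at 0 on day 7, was -0.21 in WT and -0.26 in IL6KO. Over all genes tested it was 0.01 and 0.03. Lower in both genotypes were Aldoa, Egln3, Eno1, Hk1, Ldha, Pfkl and Tpi1, which are 7 of the 9 genes in WT and 7 of the 10 in IL6KO, and no gene was called in opposite directions. The 19 belong to the steps from glucose to lactate, without Gapdh, and include the regulators Pfkfb3, Pfkfb4 and Pdk1. None of them rose, and 3 in WT and 4 in IL6KO had positive differences without a call.

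**Figure D1:**
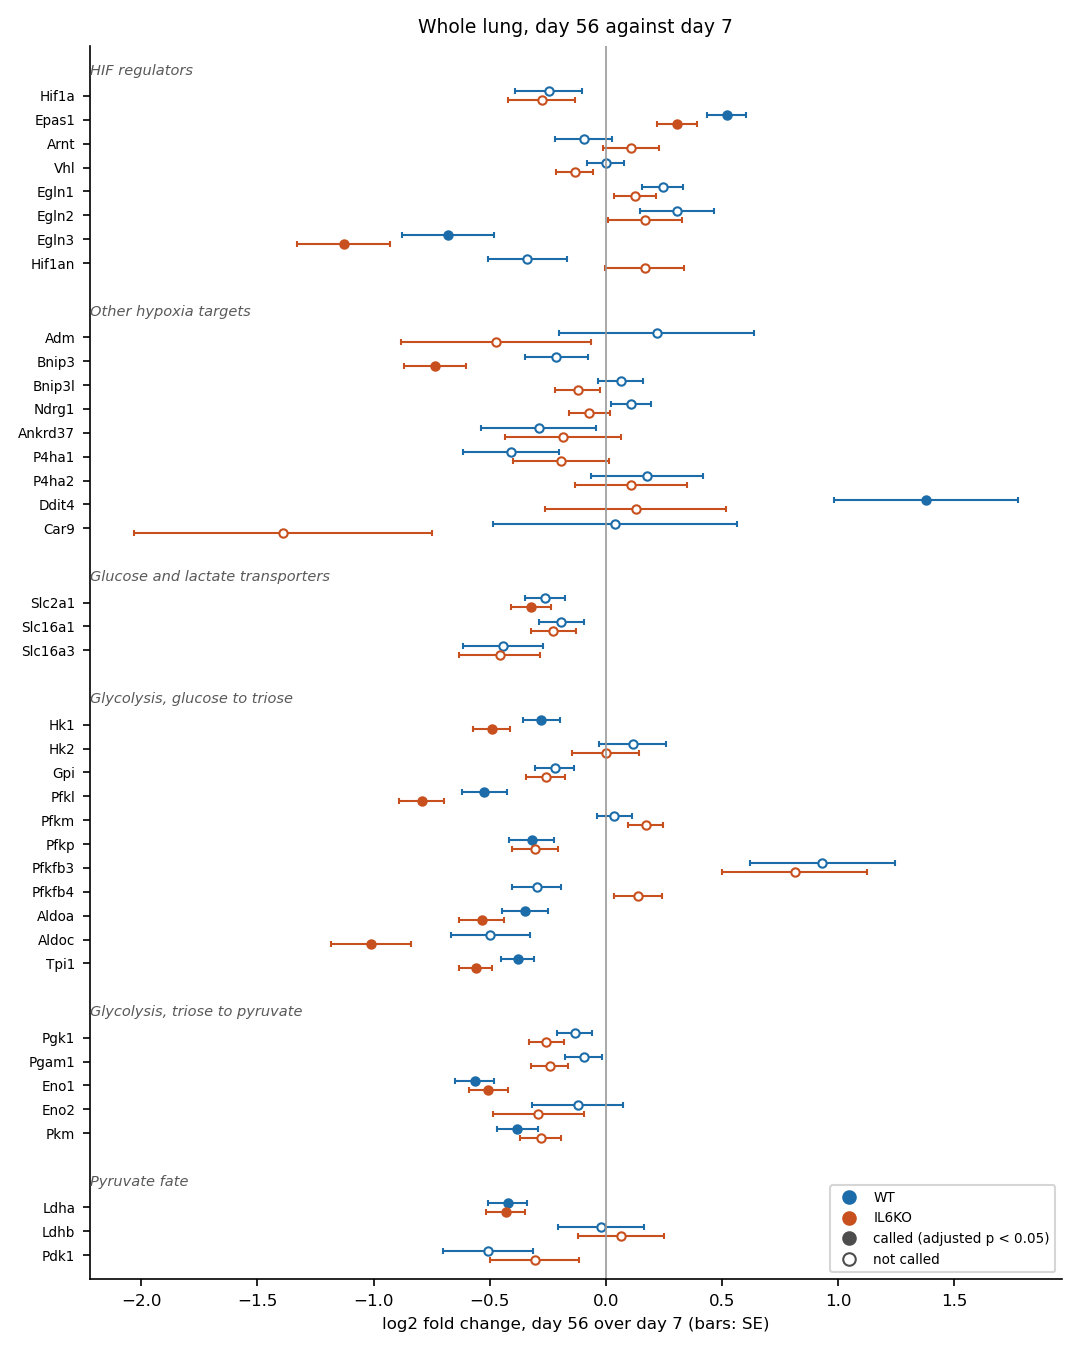
Log2 fold change of each gene in whole lung, day 56 over day 7, in WT (blue) and IL6KO (orange), grouped by role; the horizontal axis is the log2 fold change, bars are its SE, and filled points were called at an adjusted p under 0.05. Slc2a3, listed at 0 on day 7, and Gapdh, not listed there, are left out. The called enzymes lie left of 0 in both genotypes, from -0.28 (Hk1, WT) to -1.01 (Aldoc, IL6KO), and Epas1 lies right of 0 at 0.52 and 0.31.

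Eno1, the enolase that makes phosphoenolpyruvate, was at 326, 358 and 386 CPM in WT lung on day 7 and at 234, 230.2 and 253 CPM on day 56. In IL6KO lung it was at 323, 317 and 337 CPM on day 7 and at 238, 223 and 216 CPM on day 56. The 2 days did not overlap in either genotype, and the fall was to 0.676 times the day 7 level in WT (log2 -0.57, SE 0.08, edgeR adjusted p = 0.000634) and to 0.704 times in IL6KO (log2 -0.51, SE 0.08, adjusted p = 0.00202).

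Ldha, which reduces pyruvate to lactate, was at 470.2, 501 and 508 CPM in WT on day 7 and at 368, 346 and 381 CPM on day 56. The IL6KO libraries held 485, 442 and 449 CPM on day 7 and 361, 341 and 301 CPM on day 56. Again every day 56 library lay below every day 7 library, with log2 fold changes of -0.42 (SE 0.08, edgeR adjusted p = 0.00513) in WT and -0.43 (SE 0.08, adjusted p = 0.00652) in IL6KO. Ldhb, which favours the reverse reaction, stood at 47.2 to 57.9 CPM on day 7 and 48.1 to 58.5 CPM on day 56 in WT, and was called in neither genotype.

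Pfkl, the liver-type subunit of phosphofructokinase, the committed step of glycolysis, was at 127, 117 and 113 CPM in WT on day 7 and at 77.2, 90.8 and 78.6 CPM on day 56. In IL6KO it was at 148, 124 and 149.6 CPM on day 7 and at 84.4, 77.7 and 76.6 CPM on day 56. It fell to 0.696 times (log2 -0.52, SE 0.10, edgeR adjusted p = 0.00319) in WT and to 0.577 times (log2 -0.79, SE 0.10, adjusted p = 0.000177) in IL6KO. Of the other subunits, the platelet type Pfkp fell in WT (log2 -0.32, SE 0.10, adjusted p = 0.046), a call lost in 13 of the 20 settings, and missed the threshold in IL6KO (log2 -0.30, adjusted p = 0.0804), and the muscle type Pfkm was at log2 0.04 and 0.17 with no call.

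Tpi1, which interconverts the triose phosphates, was at 141, 151 and 152 CPM on day 7 and 117, 111 and 111 CPM on day 56 in WT, and at 164, 151 and 154 CPM against 109, 104 and 98.7 CPM in IL6KO. The falls were log2 -0.38 (SE 0.07, edgeR adjusted p = 0.00363) and log2 -0.56 (SE 0.07, adjusted p = 0.000269). Eno1, Pfkl, Tpi1 and Ldha kept their calls in both genotypes under each of the 20 alternative settings run. The aldolase Aldoa fell by 0.35 (SE 0.10, adjusted p = 0.0336) in WT and by 0.54 (SE 0.10, adjusted p = 0.0046) in IL6KO on the log2 scale, and the hexokinase Hk1 fell by 0.28 (SE 0.08, adjusted p = 0.0365) and 0.49 (SE 0.08, adjusted p = 0.00191). The WT calls of Aldoa and Hk1 were lost in 7 and 10 of the 20 settings, the IL6KO calls in none.

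**Figure D2:**
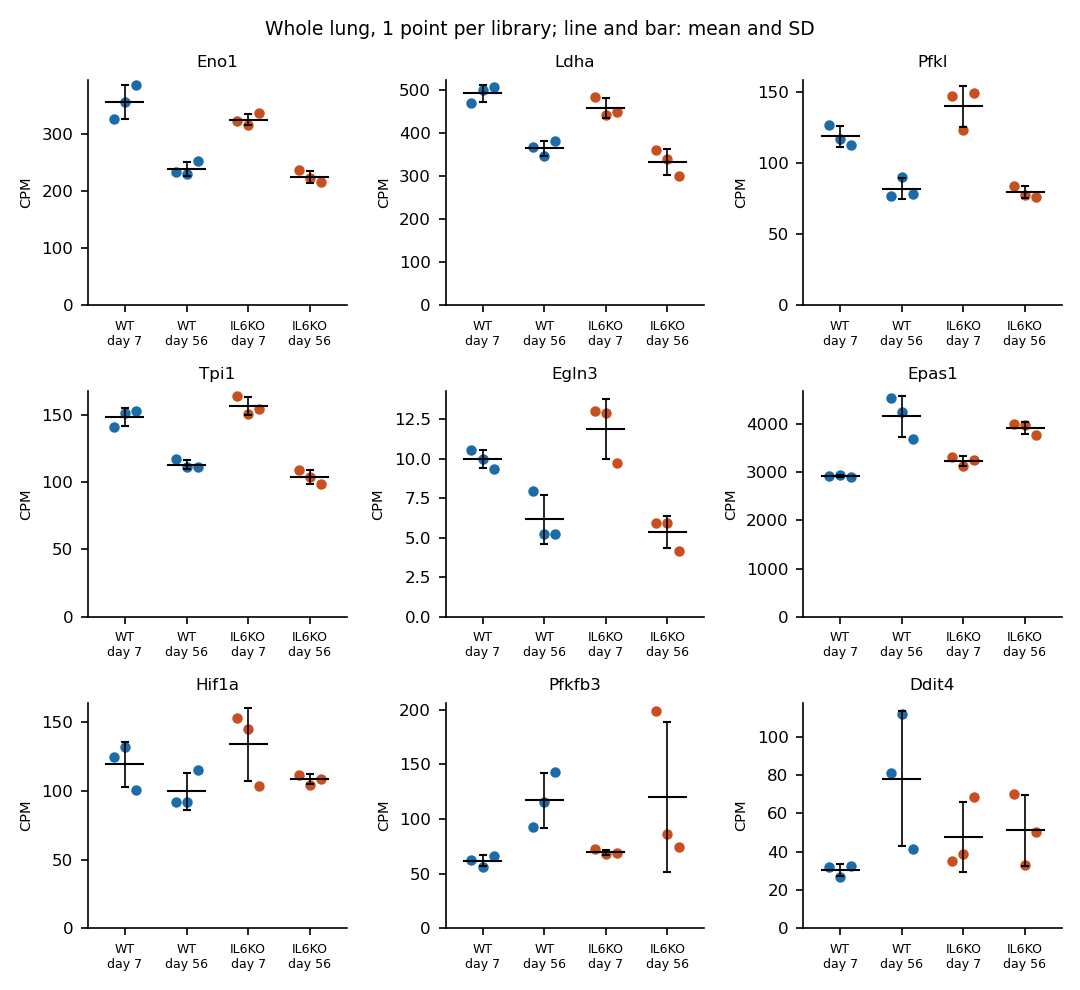
CPM of 9 genes in each of the 12 whole-lung libraries, 1 point per library, with WT in blue and IL6KO in orange; the black line is the group mean and the bar its SD (n = 3). Eno1, Ldha, Pfkl, Tpi1 and Egln3 are lower on day 56 with no overlap between days, Epas1 is higher, and Hif1a overlaps between days; Ddit4 in WT and Pfkfb3 in IL6KO rest on widely spread day 56 libraries.

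Of the remaining enzymes, Pkm, whose product makes pyruvate, fell in WT (log2 -0.38, SE 0.09, edgeR adjusted p = 0.0124) and was at log2 -0.28 in IL6KO (adjusted p = 0.0742). Aldoc, an aldolase best known from brain, fell in IL6KO from 14.0, 12.9 and 11.9 CPM to 5.17, 7.23 and 6.48 CPM (log2 -1.01, SE 0.17, adjusted p = 0.00263), with log2 -0.50 and no call in WT (adjusted p = 0.0716). Pgk1, the phosphoglycerate kinase, was at log2 -0.13 in WT and -0.26 in IL6KO (adjusted p = 0.253 and 0.0543). Gpi, Pgam1, Eno2, Hk2, Pfkfb4 and Pdk1, the kinase that holds back pyruvate dehydrogenase, were not called on either genotype's contrast. Gapdh, listed in the day 56 table alone, was at 204, 227 and 267 CPM in WT and 295, 249.5 and 229 CPM in IL6KO. Several glycolysis genes, Gapdh, Eno1, Ldha, Pgk1 and Tpi1 among them, have near-identical processed copies in the genome, and how reads shared with such copies were counted is not given in the sources used here.

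Pfkfb3, which makes the activator of phosphofructokinase, went the other way from the enzymes. It was at 62.5, 56.5 and 66.5 CPM on day 7 and at 92.9, 116 and 143 CPM on day 56 in WT, and at 72.2, 67.7 and 69.0 CPM against 199, 86.4 and 74.7 CPM in IL6KO. The days did not overlap in either genotype, but 1 IL6KO library stood far above the others, and neither difference passed the test (log2 0.93, SE 0.31, edgeR adjusted p = 0.0713 in WT, and log2 0.81, SE 0.31, adjusted p = 0.151 in IL6KO). It was called in 4 of the 20 settings in WT, which were DESeq2, the fit of the 6 WT libraries and the fits without IL6KO day 56 replicate 1 (adjusted p = 0.000786) or 3, and in 1 in IL6KO (DESeq2, adjusted p = 0.0451).

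Among the transporters, the main glucose carrier Slc2a1 fell in IL6KO from 58.4, 50.7 and 54.8 CPM to 46.4, 42.6 and 39.8 CPM (log2 -0.32, SE 0.09, edgeR adjusted p = 0.0394), a call lost in 7 of the 20 settings. In WT it was at 46.9, 53.7 and 54.0 CPM on day 7 and 41.5, 43.6 and 42.9 CPM on day 56, without overlap but short of the threshold (log2 -0.26, SE 0.09, adjusted p = 0.0639). The lactate carriers Slc16a1 and Slc16a3 had log2 fold changes from -0.19 to -0.46 in the 2 genotypes and no call. Slc2a3, the high-affinity glucose carrier, was listed at 0 in all 10 day 7 libraries, lung and CD4 isolates alike, and had 298, 234 and 132 counts in WT and 126, 217 and 234 counts in IL6KO day 56 lung. No fold is given for it. Without it, 39 genes were tested and 28.2% were called in each genotype.

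That zero sits beside a difference between the tables. Each table lists 22081 symbols, but only 20231 are shared by the day 7 and day 56 lung tables, and Hprt1, a gene used by most cells, had 575 to 1075 counts in each day 7 lung library and 0 in 5 of the 6 day 56 libraries, with 19 in the other. The gene models behind the days' counts were thus not the same, and day and table cannot be told apart for any single gene in this comparison. Between the days 58 genes were over 10 CPM in every library of 1 day and under 1 CPM in every library of the other. None of the 40 genes tested was among them, since Slc2a3 was under 10 CPM in some day 56 libraries, and 12 calls in each genotype were made without those 58.

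Epas1, the HIF-2alpha subunit, was at 2925, 2933 and 2906 CPM in WT lung on day 7 and at 4535, 4248 and 3686 CPM on day 56. In IL6KO lung it was at 3314, 3120.0 and 3252 CPM on day 7 and at 3998, 3987 and 3771 CPM on day 56. The days did not overlap in either genotype. The rise was 1.43-fold in WT (log2 0.52, SE 0.09, edgeR adjusted p = 0.00144, kept in all 20 settings) and 1.24-fold in IL6KO (log2 0.31, SE 0.09, adjusted p = 0.045), a call lost in 13 of the 20. The summed level of 10 endothelial markers, from the cells where Epas1 is abundant, was 4590 to 4810 CPM on day 7 and 4460 to 5080 CPM on day 56 in WT, and 4720 to 4940 against 4910 to 5260 CPM in IL6KO. Single markers moved both ways: of 10 tested, 2 were called higher and 3 lower in WT, and 3 higher and 2 lower in IL6KO. Their part in the Epas1 rise was not tested.

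Hif1a was not called in either genotype. It was at 125, 132 and 101 CPM on day 7 and 92.3, 92.1 and 116 CPM on day 56 in WT, and at 153, 145 and 104 CPM against 112, 104 and 109 CPM in IL6KO, with overlapping days and log2 fold changes of -0.25 (SE 0.14, edgeR adjusted p = 0.279) and -0.28 (SE 0.14, adjusted p = 0.294). Of the other regulators, Egln3, the prolyl hydroxylase whose transcript is itself a HIF target, fell from 10.5, 10 and 9.39 CPM to 7.98, 5.27 and 5.23 CPM in WT (log2 -0.68, SE 0.20, adjusted p = 0.0375). In IL6KO it fell from 13.0, 12.9 and 9.72 CPM to 5.95, 5.92 and 4.17 CPM (log2 -1.13, SE 0.20, adjusted p = 0.00336). The IL6KO call held in all 20 settings and the WT call was lost in 8. Arnt, Vhl, Egln1, Egln2 and the asparaginyl hydroxylase Hif1an were not called in either genotype.

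Of the 9 other hypoxia targets 1 was called in each genotype (11.1%, near the 14.8% and 8.32% of all genes). Ddit4, an mTORC1 inhibitor induced by hypoxia and glucocorticoids, rose in WT from 31.9, 26.9 and 32.5 CPM to 80.9, 112 and 41.6 CPM (log2 1.38, SE 0.40, edgeR adjusted p = 0.0435), a call lost in 10 of the 20 settings. In IL6KO it was at 35.4, 38.7 and 68.7 CPM on day 7 and 70.1, 33.1 and 50.6 CPM on day 56, with overlap (log2 0.13, adjusted p = 0.892). Immediate early genes, which respond to stress and handling, summed to 682 to 843 CPM on day 7 and 949 to 1910 CPM on day 56 in WT, and to 695 to 834 against 1030 to 1660 CPM in IL6KO, and their part in the Ddit4 difference was not tested. Bnip3, a mitophagy receptor, fell in IL6KO from 85.8, 68.5 and 58.1 CPM to 45.2, 43.6 and 36.5 CPM (log2 -0.73, SE 0.13, adjusted p = 0.0043) and was at log2 -0.21 without a call in WT. Adm, which encodes the vasodilator adrenomedullin, Bnip3l, Ndrg1, Ankrd37, the collagen prolyl hydroxylases P4ha1 and P4ha2, and the carbonic anhydrase Car9 (at most 1.3 CPM in any lung library) were not called.

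In 2 wider lists of the same pathways, 8 of 28 other HIF pathway genes were called in WT (3 higher, 5 lower) and 5 of 28 in IL6KO (1 higher, 4 lower), which is 28.6% and 17.9% against 14.8% and 8.32% of all genes. The smallest p-values belonged to Loxl2 (log2 -1.97 in WT and -1.25 in IL6KO), Lox (-1.37 and -1.46), Plod2 (-1.27 and -0.83) and Plod1 (-0.58 in both), which fell in both genotypes and whose products are known to modify collagen. Of 27 other glucose metabolism genes, 6 were called in WT and 3 in IL6KO, shares of 22.2% and 11.1% that are near those of all genes. Fbp1, the gluconeogenic enzyme that opposes phosphofructokinase, rose in both (log2 2.17, SE 0.38, and 1.28, SE 0.35), and Bpgm, which makes the red-cell regulator of haemoglobin's oxygen affinity, fell in both (log2 -1.01 and -0.999). Pdk4, another pyruvate dehydrogenase kinase, rose in WT (log2 1.03, SE 0.20, edgeR adjusted p = 0.00458).

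Markers of several cell types and states moved between the days beside these genes. The summed level of 16 proliferation genes was 582 to 637 CPM on day 7 and 239 to 314 CPM on day 56 in WT, and 383 to 512 against 220 to 270 CPM in IL6KO. Fibroblast and matrix genes (7 markers) summed to 9580 to 11600 CPM against 3650 to 4300 CPM in WT and to 8190 to 9250 against 3460 to 4010 CPM in IL6KO. Erythroid genes (9 markers) went from 3420 to 3970 CPM to 298 to 887 CPM in WT and from 3020 to 7900 CPM to 672 to 2560 CPM in IL6KO. The 8 smooth muscle genes went from 2290 to 2510 CPM to 1310 to 1830 CPM in WT and from 2060 to 2120 CPM to 1050 to 1380 CPM in IL6KO. NK cell markers rose in WT (7 of 7 called) and were not called in IL6KO (0 of 7). The part of these markers in the fall of the enzymes was not tested. In bulk lung, fewer cells of a type and less RNA per cell cannot be told apart.

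The number of genes called in WT rested on single libraries. Without WT day 7 replicate 2, WT day 7 replicate 3 or WT day 56 replicate 2 it was 7 instead of 12. In these fits the count over all genes also fell, from 2048 to 1235, 1308 and 1413 in that order. Without WT day 56 replicate 3 it was 16, and the count over all genes rose from 2048 to 3656. In that library the 12 cardiac markers summed to 413 CPM, against 47.9 and 123 CPM in the other WT day 56 libraries and 403 to 648 CPM in WT day 7 lung. In IL6KO the number of these genes called stayed between 10 and 17, while the count over all genes fell from 1153 to 706 without IL6KO day 7 replicate 1 and to 704 without replicate 2.

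The day effect did not differ detectably between genotypes for any of the 40 genes. The interaction of genotype and day, tested with edgeR in the same fit, called 0 of 40 genes and 0 of all 13866 (0.0%). DESeq2 and limma-voom also called 0 of the 40 genes, and DESeq2 called 47 genes in all. Without WT day 56 replicate 3 edgeR called 597 genes, still with 0 of the 40 among them. Whatever its p, the interaction was positive for 11 of the 40 genes and negative for 29, with a median of log2 -0.12. Over all genes it was positive for 7022 and negative for 6844, with a median of 0.00. At an unadjusted p under 0.05 the interaction was positive for 1 of the 40 genes and negative for 2. The smallest p-values belonged to Pfkfb4 (log2 0.44, SE 0.15, adjusted p = 0.554), Bnip3 (log2 -0.52, SE 0.19, adjusted p = 0.593) and Ddit4 (log2 -1.25, SE 0.55, adjusted p = 0.66). Calls made in 1 genotype alone, as for Bnip3, Ddit4, Aldoc or Pkm, are therefore not shown to differ between genotypes.

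Within day 7 lung 1 of these genes differed between the genotypes. Of 39 genes tested in the fit of the 6 day 7 libraries, Adm was higher in IL6KO and none was lower, which is 2.56% against 2.09% of all 14368 genes (0.933% higher, 1.16% lower). The median log2 difference of the genes was 0.03, against 0.00 over all genes tested. Adm was at 8.36, 9.3 and 7.52 CPM in WT and 17.9, 14.4 and 11.6 CPM in IL6KO, without overlap (log2 0.79, SE 0.17, edgeR adjusted p = 0.0475). The call was lost in 8 of the 13 alternative settings, among them limma-voom, the fit of all 12 lung libraries (adjusted p = 0.621) and leaving out any 1 library except IL6KO replicate 3. Bnip3 was at 52.8, 51.3 and 44.0 CPM in WT and 85.8, 68.5 and 58.1 CPM in IL6KO, also without overlap but not called (log2 0.52, SE 0.14, adjusted p = 0.103). Among the wider HIF list, Hmox1 (haem oxygenase) and Loxl2 were among those lower in IL6KO, by log2 -0.71 and -0.40. Of the marker lists, 6 of 7 NK cell markers were higher and 5 of 16 proliferation markers lower in IL6KO, and their part in the Adm difference was not tested.

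On day 56 no gene of the 40 tested was called between genotypes (0 of 40, against 2 of all 14475 genes, 0.0138%). DESeq2 and limma-voom called 0 of the 40 too, and 3 had an unadjusted p under 0.05. These were Pfkm (31.8 to 34.7 CPM in WT, 39.2 to 40.4 CPM in IL6KO, log2 0.27, SE 0.08), the phosphoglycerate mutase Pgam1 (166 to 192 CPM against 139 to 157 CPM, log2 -0.30, SE 0.09) and Hif1an (10.2 to 15.4 CPM against 14.6 to 19.1 CPM, log2 0.47, SE 0.19), with edgeR adjusted p of 0.414, 0.414 and 0.434. The count depended on 1 library: without WT day 56 replicate 3, Pgam1 and Hif1an were called (adjusted p = 0.0495 and 0.0446) and the count over all genes rose from 2 to 1268.

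The CD4 isolates differed from whole lung at day 7 for most of these genes, as for most genes measured. In WT, 21 of the 39 genes tested were higher and 11 lower (82.1%, against 81.4% of all 14772 genes, 37.7% higher and 43.6% lower). In IL6KO 18 were higher and 14 lower (82.1%, against 79.5% of all genes, 36.4% higher and 43.2% lower). The share called was thus near the background, and the direction leaned to higher. The 18 genes higher in IL6KO were all among the 21 of WT, 10 were lower in both, and none went in opposite directions. The median of all genes was -0.12 on the log2 scale in both genotypes, and that of the 39 genes was 0.36 in WT and 0.18 in IL6KO.

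**Figure D3:**
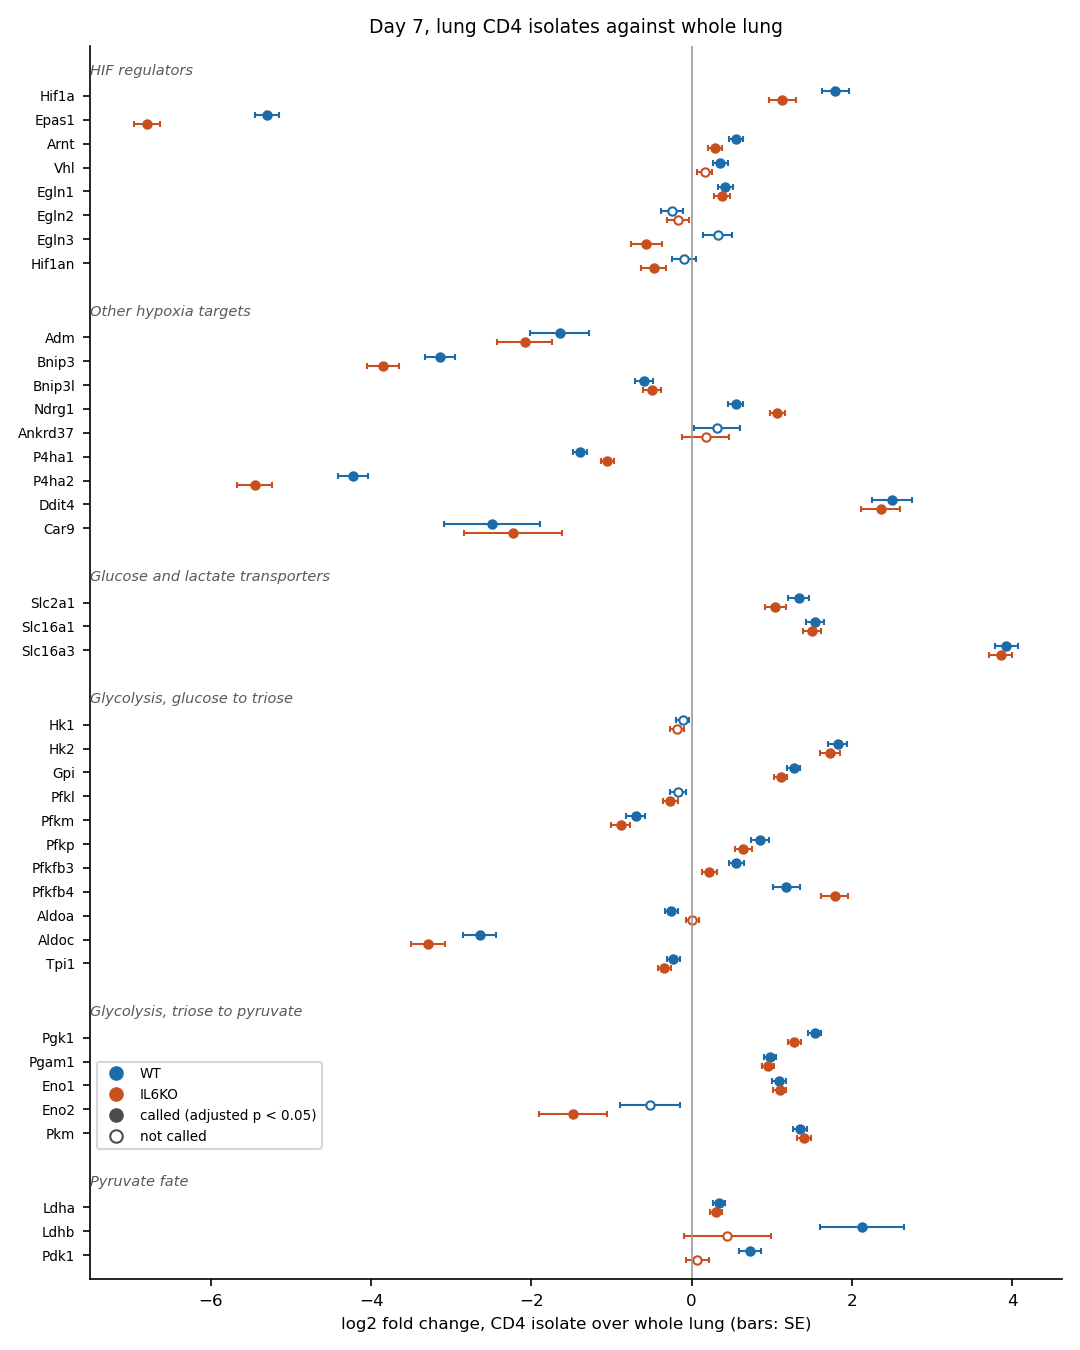
Log2 fold change of each gene at day 7, CD4 isolate over whole lung, in WT (blue) and IL6KO (orange), grouped by role; the horizontal axis is the log2 fold change, bars are its SE, and filled points were called at an adjusted p under 0.05. Slc16a3 lies farthest to the right, at 3.93 and 3.86, and Epas1 farthest to the left, at -5.30 and -6.80; the lower-glycolysis enzymes other than Eno2 lie right of 0.

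Lactate and glucose carriers were higher in the isolates. Slc16a3, the lactate exporter of glycolytic cells, was at 323 and 244 CPM in WT and 208 and 227 CPM in IL6KO isolates, against 13.9 to 20.9 CPM in the 6 day 7 lung libraries. That is 15.2-fold higher in WT (log2 3.93, SE 0.14) and 14.5-fold higher in IL6KO (log2 3.86, SE 0.15). Slc16a1 was 2.92 and 2.84 times, and Slc2a1 2.52 and 2.07 times, the lung level.

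In the lower part of glycolysis 4 of the 5 genes tested were higher in both genotypes, and Eno2 was called lower in IL6KO isolates. Pgk1 was at 469 and 496 CPM in WT and 402 and 377 CPM in IL6KO isolates, against 151 to 169 CPM in day 7 lung (log2 1.54 and 1.28, SE 0.08 in both). Pkm was at 909 to 964 CPM in the 4 isolates, against 332 to 391 CPM in lung (log2 1.36 and 1.40), and Eno1 at 704 to 805 CPM, against 317 to 386 CPM (log2 1.09 and 1.10). Pgam1 was 1.97 and 1.94 times the lung level. Ldha, at 562 to 644 CPM in the isolates and 442 to 508 CPM in lung, was 1.27 and 1.23 times the lung level (log2 0.34 and 0.30).

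The upper part was mixed by isoform. Hk2, the inducible hexokinase, was at 56.9 to 73.4 CPM in the isolates and 15.7 to 20.1 CPM in lung (log2 1.82 and 1.73, SE 0.12 in both), while Hk1 was called in neither genotype. Gpi, Pfkp, Pfkfb3 and Pfkfb4 were higher in both genotypes. Pfkm (0.617 and 0.542 times), Aldoc (0.16 and 0.102 times) and Tpi1 (0.855 and 0.79 times the lung level) were lower in both.

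Hif1a and Epas1 went in opposite directions. Hif1a was at 458 and 387 CPM in WT and 268 and 326 CPM in IL6KO isolates, against 101 to 153 CPM in lung (3.47-fold and 2.19-fold higher, log2 1.79 and 1.13, SE 0.17 in both, edgeR adjusted p = 1.51e-06 and 7.83e-05). Epas1 was at 84.6 and 66.5 CPM in WT and 26.1 and 32.6 CPM in IL6KO isolates, against 2906 to 3314 CPM in lung (log2 -5.30, SE 0.15, and -6.80, SE 0.16). Among the targets, Ddit4 was 5.67 and 5.14 times the lung level and Ndrg1 1.46 and 2.1 times, while Bnip3 (log2 -3.14 and -3.85), P4ha2 (-4.23 and -5.46), P4ha1 (-1.39 and -1.05) and Adm (-1.65 and -2.08) were lower. The endothelial markers summed to 150 to 208 CPM in the isolates against 4590 to 4940 CPM in day 7 lung. Fibroblast and matrix genes (7 markers) summed to 1030 to 1970 CPM against 8190 to 11600 CPM. The part of these cell types in the differences was not tested.

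Other features differed between the preparations beside these genes. The 13 immediate early genes, which tissue dissociation can induce, summed to 10400 to 13000 CPM in the isolates and 682 to 843 CPM in day 7 lung. The 16 proliferation genes summed to 1090 to 1370 CPM against 383 to 637 CPM. Neutrophil genes (9 markers) summed to 466 to 1560 CPM against 38.6 to 64.4 CPM. Macrophage and monocyte genes (12 markers) summed to 11900 to 17000 CPM against 16900 to 22300 CPM. Lyz2 made up most of that sum, at 7743 to 11470 CPM in the isolates and 15940 to 21280 CPM in lung. The sum therefore follows Lyz2 and does not give the direction of the other markers. Cd68 was higher in the isolates, at 216 to 326 CPM against 75.3 to 149.6 CPM in lung. The 11 reference genes of general cell upkeep summed to 18900 to 19800 CPM against 8680 to 9830 CPM, so the CPM scale itself differs in what it is relative to. The part of these in the differences was not tested, and cell type and isolation procedure cannot be told apart.

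Between genotypes within the CD4 isolates, 3 hypoxia targets and 1 enzyme were higher in IL6KO, and Epas1 and Pdk1 were lower. These are 6 of 38 genes tested (15.8%, against 6.4% of all 12243 genes, 3.5% higher and 2.91% lower). The median log2 difference of the 38 genes was -0.08, against 0.00 over all genes.

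Ddit4 was at 169 and 182 CPM in WT and 260.0 and 237 CPM in IL6KO isolates (log2 0.59, SE 0.09, edgeR adjusted p = 0.0126). Ndrg1, a stress and hypoxia response gene also known as a T cell anergy factor, was at 131 and 124 CPM against 173 and 189.8 CPM (log2 0.61, SE 0.09, adjusted p = 0.015). P4ha1 was at 35.8 and 39.3 CPM against 52.7 and 50.05 CPM (log2 0.55, SE 0.10, adjusted p = 0.0237). In all 3 both IL6KO libraries lay above both WT libraries, but the genotypes did not overlap for 27 of the 38 genes tested. That share was not counted over all genes. Immediate early genes were also higher, at 10400 to 11300 CPM in WT and 12800 to 13000 CPM in IL6KO isolates with 3 of 13 called, and their part was not tested. Aldoa was at 675 and 663 CPM against 841 and 785 CPM (log2 0.38, SE 0.08, adjusted p = 0.0315).

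Epas1 was lower in IL6KO isolates (84.6 and 66.5 CPM against 26.1 and 32.6 CPM, log2 -1.27, SE 0.17, edgeR adjusted p = 0.0137). The 10 endothelial markers, from cells that express Epas1, summed to 188 to 208 CPM in WT and 150 to 151 CPM in IL6KO isolates. Of 9 tested, 2 were called lower and none higher, and 3 had positive differences: Cdh5 was at 18.7 and 14.7 CPM against 6.87 and 8.67 CPM, while Kdr was at 16.6 and 12.1 CPM against 11.6 and 24.7 CPM. The 7 alveolar type 2 markers summed to 3030 to 4350 CPM against 1410 to 1470 CPM. Their part in the Epas1 difference was not tested. Pdk1 was at 33.4 and 33.2 CPM in WT and 21.6 and 21.4 CPM in IL6KO (log2 -0.54, SE 0.11, adjusted p = 0.038).

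**Figure D4:**
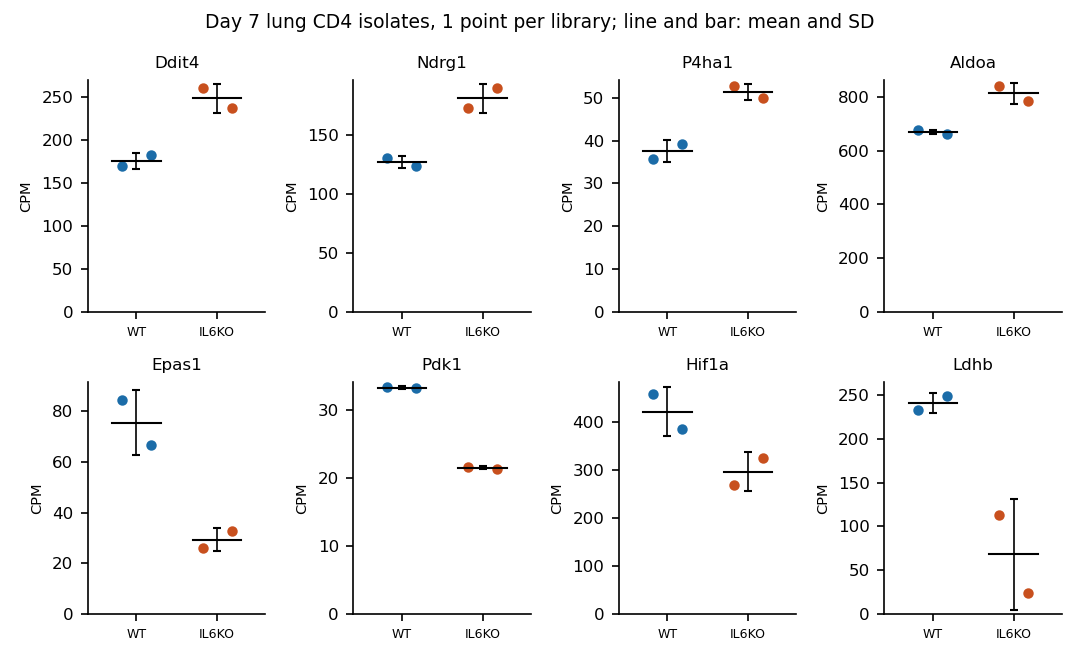
CPM of 8 genes in the 4 CD4 isolate libraries of day 7, 1 point per library, with WT in blue and IL6KO in orange; the black line is the group mean and the bar its SD (n = 2). The genotypes do not overlap for any of the 8, nor for 27 of the 38 genes tested, a share that was not counted over all genes. With n = 2 a lack of overlap alone does not make a call. Only Ddit4, Ndrg1, P4ha1, Aldoa, Epas1 and Pdk1 were called, and the 2 IL6KO libraries of Ldhb are 113 and 23.4 CPM.

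Hif1a was at 458 and 387 CPM in WT and 268 and 326 CPM in IL6KO isolates, without overlap and without a call (log2 -0.41, SE 0.14, edgeR adjusted p = 0.13). Ldhb was at 233 and 249 CPM against 113 and 23.4 CPM (log2 -1.74, SE 0.95, adjusted p = 0.431), where the 2 IL6KO libraries differed widely from each other. Eno1, Ldha, Pkm, Pgam1 and Pgk1 were not called between genotypes. Their log2 differences were -0.04, -0.06, 0.07, -0.08 and -0.22 in that order (SE 0.07 to 0.08). These genes do not stand for all of glycolysis. Of 19 genes tested from the steps from glucose to lactate, 1 was called higher in IL6KO isolates (Aldoa) and 1 lower (Pdk1), as given above.

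The calls depended on single libraries. Without WT replicate 1 none of the 38 genes was called (adjusted p = 0.0759 for Epas1), and without WT replicate 2 Epas1 was the only one, when the counts over all genes fell from 784 to 76 and 115. Aldoa was also not called without IL6KO replicate 1, and Pdk1 without either IL6KO replicate or with DESeq2. The isolates of the genotypes also differed in other markers: Cd8a was at 168 and 124 CPM in WT and 16.1 and 13.0 CPM in IL6KO, 10 T cell markers summed to 3970 to 4000 CPM against 2920 to 3300 CPM, and 8 genes encoded by the mitochondrial genome to 79600 to 82500 CPM against 54000 to 58800 CPM. Neutrophil genes (9 markers) summed to 723 and 1560 CPM in WT and to 597 and 466 CPM in IL6KO. Erythroid genes (9 markers) went the other way, at 804 to 1230 CPM in WT and 2460 to 5250 CPM in IL6KO. Airway genes (7 markers) summed to 765 to 770 CPM in WT and 202 to 344 CPM in IL6KO. The 8 smooth muscle genes summed to 63.0 to 65.1 CPM in WT and 25.0 to 31.1 CPM in IL6KO. Whether any of these marker differences bears on the called genes was not tested.

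A direct test of whether the genotype difference was unequal in CD4 isolates and in lung called 2 of 39 genes, Epas1 (log2 -1.50) and Ndrg1 (log2 0.52). That is 5.13%, against 6.42% of all 14772 genes (1.88% higher, 4.55% lower), and the medians were -0.14 for the 39 genes and -0.11 for all genes. The other 4 genes called within the isolates were therefore not shown to differ from lung in their genotype effect.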

How the data were processed

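Gene-level RNA-seq counts of 16 rat libraries were analysed, 12 of whole lung and 4 of lung CD4 isolates, and the mouse libraries of the series were not analysed here. The authors deposited raw counts in 3 tables, 1 column per library. The submitters' processing notes name the mouse build GRCm38 for the rat libraries too. Aligner, counter and annotation were not given in the sources used here. Genes were matched by symbol, and Ca9 was read as Car9. The genes and lists were chosen with earlier results of these data known.

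Counts were tested with edgeR 4.0.16 (R 4.3.3): TMM scaling, filterByExpr, robust quasi-likelihood fit, Benjamini-Hochberg adjustment over all genes tested, calls at an adjusted p under 0.05. Day comparisons and their interaction with genotype used 1 fit of the 12 lung libraries, genotype comparisons the libraries of that table, and isolates against lung the 10 day 7 libraries. The script was tested on simulated counts. A comparison of the genotype effect between isolates and lung was added after seeing the data. Library depth is given with the levels, a count of 0 allows up to 3 counts per library, and such limits cover counting error only. Alternatives were RLE size factors, DESeq2 1.42.0, limma-voom (limma 3.58.1), no filter, a mean of at least 5 CPM, a replicate block, other sets of libraries and leaving out each library. Genes named were all those called where 12 or fewer were, otherwise the 12 with the smallest p, the 3 with the smallest p where none was called, Hif1a, Epas1, Egln3, Bnip3, Slc2a1, Pfkfb3, Pgk1 and Ldha between days and between isolates, and up to 4 called pathway genes per comparison. Fbp1, Bpgm, Pdk4, Gapdh, Ldhb and other uncalled genes were named after their values were seen. Promoter sequences are from RefSeq, build GRCr8. 1 gene of the wider HIF list is not reported here by name.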

Additional observations from a re-analysis of the deposited data

Results flagged for a closer look

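The genotype effect differed between CD4 isolates and whole lung at day 7 for 2 of 39 genes by an interaction test in edgeR's fit of the 10 day 7 libraries, a comparison added after seeing the data. Epas1 was lower in IL6KO isolates and was not called in lung (log2 0.14), a difference of log2 -1.50 (SE 0.17, adjusted p = 0.000794, kept in all 16 alternative settings with a range of -1.68 to -1.31). Ndrg1 was higher in IL6KO isolates, a difference of log2 0.52 (SE 0.13, adjusted p = 0.0388), which was lost in 7 of the 16 settings. All 7 left out 1 library, and the adjusted p then reached 0.134. Levels of both genes in each library are given above with the CD4 isolates, and in day 7 lung Ndrg1 was at 76.6, 87.5 and 91.6 CPM in WT and 82.5, 84.7 and 88.5 CPM in IL6KO.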

How the results depend on the processing

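No called gene among those named changed direction under the alternatives run. Of the uncalled ones, Bnip3 (log2 -0.11) and Slc2a1 (log2 -0.12) between genotypes in CD4 isolates changed sign without IL6KO replicate 1, to 0.02 and 0.12. Between the days, the number of genes called was 12 in WT and 12 in IL6KO, and 10 to 16 and 10 to 18 under the other scalings, filters and tools. Leaving out 1 library gave 7 to 16 in WT and 10 to 17 in IL6KO. For IL6KO against WT in day 7 lung the count of 1 became 3 with DESeq2, 0 with limma-voom, 0 with a mean of at least 5 CPM, 0 in the fit of all 12 lung libraries, and 0 to 2 without 1 library. In day 56 lung the count of 0 was 0 to 2 without 1 library. In the CD4 isolates the count of 6 was 5 to 6 under other scalings, filters and tools and 0 to 8 without 1 library, where the arm left with 1 sample is assumed to vary like the other. The genotype by preparation count of 2 was 1 to 5 without 1 library and 3 with DESeq2, without a filter and at 5 CPM. For isolates against lung the counts stayed between 29 and 33.

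The labels do not say that replicate numbers pair the libraries. Same-numbered libraries correlated at 0.06, 0.08 and 0.26 in day 7 lung, against -0.165 to 0.111 for different-numbered ones. In day 56 lung the values were -0.16, -0.08 and -0.03, against -0.045 to 0.125. These values do not settle whether the numbers pair libraries in day 7 lung. With the replicate number as a block, 8 genes were called between the days in WT and 10 in IL6KO. Between genotypes 2 were called in day 7 lung (543 of all genes instead of 300), 0 in day 56 lung and 6 in CD4 isolates (1084 of all genes instead of 784).

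Counts over all genes moved by more than 1.5 times as well: DESeq2 called 565 instead of 300 genes between genotypes in day 7 lung, 175 instead of 2 in day 56 lung and 47 instead of 0 for the genotype by day interaction.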
